A study of Mus musculus with 6 samples.

Results

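Chromatin accessibility was described at 9 genes of adrenergic and muscarinic signaling in neonatal mouse heart nuclei. The genes were the receptors Adrb1, Adra1a, Adra1b and Chrm2, the adenylyl cyclases Adcy5 and Adcy6, the phosphodiesterases Pde3a and Pde4d, and the receptor kinase Grk5. They were chosen by name, and every deposited peak that overlapped a gene body or the 10 kb to either side of it (GENCODE M21, mm10) was taken. All 9 genes, of 21938 protein-coding genes, held peaks. Peaks of the 6 libraries that overlapped were merged into 169872 regions, of which 319 lay in the windows of the 9 genes.

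Omni-ATAC-Seq inserts sequencing adapters into accessible DNA by means of a transposase. It had been performed on 50000 nuclei per library from whole hearts of mice at P1 (postnatal day 1). All nuclei came from a 2.2 M sucrose cushion, and each of the 3 groups had 2 biological replicates. The paper reports that this cushion gives nearly pure cardiomyocyte nuclei, and used it to keep peaks of other cells out of the Myc maps. Input nuclei came from wild type hearts and were not immunoprecipitated. Myc nuclei came from Nkx2-5 Cre/+ hearts carrying the Sun1-GFP-myc nuclear envelope tag at the Rosa26 locus (R26), and were purified with a Myc antibody, so that this group depends on where Nkx2-5 Cre had been active, a lineage that includes smooth muscle and endothelial cells beside cardiomyocytes. PCM1 nuclei came from hearts labelled wild type and were purified with an antibody to PCM1, a pericentriolar protein of the cardiomyocyte nuclear surface. The labels do not say whether hearts were pooled.

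Norepinephrine acting on β-adrenergic receptors raises cAMP through adenylyl cyclase and protein kinase A, which increases the rate and force of the heartbeat. Acetylcholine acting on the muscarinic receptor encoded by Chrm2 opposes this through inhibitory G proteins, and α1-adrenergic receptors signal through Gq and phospholipase C. Phosphodiesterases break cAMP down, and receptor kinases such as GRK5 phosphorylate occupied receptors and so desensitize them.

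The lists held between 75336 and 131500 peaks per library, and between 143 and 250 of these lay in the 9 windows, which is 0.185 to 0.190% of each list. Each peak was given a rank percentile within its own library from its -log10 q-value, where 100 is the strongest peak and 0 stands for no peak. The deepest library, Input replicate 1, was 4.38 times as deep as the shallowest, PCM1 replicate 2, as judged from the background pileup behind the peaks, and absence of a peak means only that none was called at that depth. Ranks shift with depth: over the 88 regions of the windows found in all 6 libraries, Input replicate 1 ranked a median of 14.0 points above Input replicate 2, whereas the Myc replicates differed by a median of 4.44 points in either direction and the PCM1 replicates by 7.69. Group comparisons were therefore repeated with the strongest 75336 peaks of every library, and with summit pileup divided by the library's background. With 2 libraries against 4, an exact permutation test cannot go below p = 0.0667 one-sided, so no test between groups was run. A higher rank can come from more nuclei with an open site or from a more open site in the same nuclei, and these cannot be told apart. The labels were checked against cell type markers. Only the 5′-most annotated start of each marker was examined. Peaks lay within 1 kb of the starts of 8 of 10 cardiomyocyte genes in every library, including Myh6, Tnnt2 and Ttn. Tnni3 and Nkx2-5 had none there in any library, though their windows held 6 regions each. Start peaks were also in every library at 7 of 8 smooth muscle and pericyte genes, 6 of 8 endothelial, 4 of 8 fibroblast and 4 of 6 epicardial genes. They were in every library at 3 of 10 autonomic neuron and Schwann cell genes, and at 56.1% of all protein-coding genes. Start peaks alone thus did not set cardiomyocytes apart. Of 6 immune genes, 5 had no start peak in any library, and only the Input libraries had a peak at the remaining gene, Lyz2, at ranks 20.5 and 2.24. The mean start rank of 8 fibroblast genes was 61.4 and 41.7 in the Input libraries, 61.5 and 67.0 in Myc libraries and 33.9 and 31.2 in PCM1 libraries. Starts without a peak counted as 0, so such means can shift with depth. In the same order, endothelial means were 61.6, 39.9, 57.0, 63.5, 42.0 and 50.7. Smooth muscle and pericyte means were 76.3, 54.1, 59.4, 68.2, 59.8 and 45.7. Epicardial means were 54.3, 43.0, 50.8, 47.9, 42.5 and 38.9, and cardiomyocyte means 74.8, 71.1, 69.1, 72.3, 71.4 and 71.5. Summits in the coding exons of Sun1, the gene used for the tag, numbered 0 and 0 in the Input libraries, 4 and 4 in Myc libraries and 3 and 7 in PCM1 libraries, which goes against the wild type label of the PCM1 libraries.

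The sequences at 10 of the regions described below are shown as the summit base with 75 bp to either side, read 5′ to 3′ from the plus strand of GRCm38.p6, the RefSeq release of the mm10 assembly. They are the starts of Adra1a and Chrm2, which were called in some libraries and not in others, the internal start of Adra1b, the strongest regions of Chrm2 and Pde4d, and 5 regions of Adcy5, Pde4d and Grk5 whose ranks separated a group. These were selected after their values were seen. Capitals mark matches, on either strand, to short motifs: AGATAA for GATA factors, GGAATG for TEAD, CAGCTG for an E-box, TGACGT for the core of the cAMP response element (CRE), TNAAGTG for NKX2-5, TGANTCA for AP-1, and MEF2 and SRF CArG boxes. A sequence without capitals holds none of them.
Adra1a gene start, chr14:66635205-66635355: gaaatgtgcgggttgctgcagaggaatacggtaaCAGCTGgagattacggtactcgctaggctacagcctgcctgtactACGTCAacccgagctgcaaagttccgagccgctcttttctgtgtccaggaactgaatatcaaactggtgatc
Adra1b internal start, chr11:43836503-43836653: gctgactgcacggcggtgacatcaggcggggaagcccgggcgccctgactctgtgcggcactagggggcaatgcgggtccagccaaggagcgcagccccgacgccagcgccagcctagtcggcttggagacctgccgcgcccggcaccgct
Chrm2 gene start, chr6:36388014-36388164: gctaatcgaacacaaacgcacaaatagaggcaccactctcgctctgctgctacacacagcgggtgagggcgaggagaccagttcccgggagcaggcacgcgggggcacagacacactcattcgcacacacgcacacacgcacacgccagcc
Chrm2 intron, strongest region, chr6:36405147-36405297: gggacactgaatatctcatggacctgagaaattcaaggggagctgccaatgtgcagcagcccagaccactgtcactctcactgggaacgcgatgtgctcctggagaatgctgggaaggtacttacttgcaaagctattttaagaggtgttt
Adcy5 intron, lowest in Myc, chr16:35201454-35201604: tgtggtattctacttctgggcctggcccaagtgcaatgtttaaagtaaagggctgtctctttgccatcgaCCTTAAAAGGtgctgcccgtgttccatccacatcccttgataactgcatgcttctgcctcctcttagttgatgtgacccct
Pde4d intron, strongest region, chr13:109822480-109822630: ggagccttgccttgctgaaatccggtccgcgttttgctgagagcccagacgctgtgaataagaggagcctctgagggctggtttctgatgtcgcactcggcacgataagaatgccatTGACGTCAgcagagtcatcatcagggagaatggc
Pde4d intron, highest in Myc, chr13:108997779-108997929: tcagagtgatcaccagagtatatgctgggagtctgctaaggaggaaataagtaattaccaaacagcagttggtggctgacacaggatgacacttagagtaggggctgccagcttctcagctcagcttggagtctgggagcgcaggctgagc
Pde4d intron, highest in PCM1, chr13:109915677-109915827: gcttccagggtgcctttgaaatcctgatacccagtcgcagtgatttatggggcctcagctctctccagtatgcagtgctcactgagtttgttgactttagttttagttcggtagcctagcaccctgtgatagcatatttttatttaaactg
Pde4d near its 3′ end, lowest in PCM1, chr13:109922339-109922489: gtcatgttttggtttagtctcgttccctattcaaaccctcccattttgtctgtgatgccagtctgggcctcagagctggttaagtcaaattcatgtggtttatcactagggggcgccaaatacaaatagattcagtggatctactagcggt
Grk5 flank, lowest in Myc, chr19:61103468-61103618: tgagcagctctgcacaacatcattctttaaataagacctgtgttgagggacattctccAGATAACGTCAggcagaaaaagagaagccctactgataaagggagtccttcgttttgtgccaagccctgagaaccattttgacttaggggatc

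A match is only a match of letters. Within 100 bp of the summit, the CRE core was present in 9 of the 88 regions found in all 6 libraries (10.2%), against 4.98% of all such regions in the genome. The E-box was present in 12.5% of the 88 against 20.8%. Matches to GATA were in 12.5% against 10.2%, and matches to NKX2-5 in 10.2% against 9.35%. TEAD was in 12.5% against 14.2%, AP-1 in 4.55% against 7.48%, MEF2 in 3.41% against 2.64% and SRF CArG in 1.14% against 1.21%. Over all 319 regions of the windows, the CRE core was in 5.02%, against 3.52% of all regions. None of these differences was tested. The strongest Pde4d region carried the CRE core on both strands, as an overlapping palindrome. CREB, which binds this element, is phosphorylated by protein kinase A.

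The 9 genes differed in how strongly their best site ranked. The strongest peak of Grk5 ranked 97.3 ± 0.905 (mean ± SD, n = 6 libraries), that of Chrm2 96.2 ± 1.26, that of Pde4d 95.4 ± 1.44, that of Adcy6 93.5 ± 1.96, that of Adra1b 93.4 ± 1.29 and that of Adcy5 92.4 ± 3.26. Pde3a followed at 89.1 ± 4.29, Adrb1 at 83.9 ± 4.60 and Adra1a at 57.3 ± 8.05. Neighbors in this order from Grk5 down to Pde3a differed by no more than the SD of their difference across libraries. Only the last 2 steps exceeded it. Pde3a ranked above Adrb1 by 5.22 ± 2.54 points, and Adrb1 ranked above Adra1a by 26.6 ± 8.36 points, each in 6 of 6 libraries. Pde4d also ranked above Adcy6 in 6 of 6 libraries, by 1.94 ± 2.28 points. The order depended on the measure. Ranked by fold enrichment, the strongest peak of Chrm2 averaged 99.1, above Grk5 at 96.7. Adcy6 averaged 84.8, below Pde3a at 93.1 and Adcy5 at 92.8. Adrb1 at 79.3 and Adra1a at 65.7 were again the lowest.

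**Figure D1:**
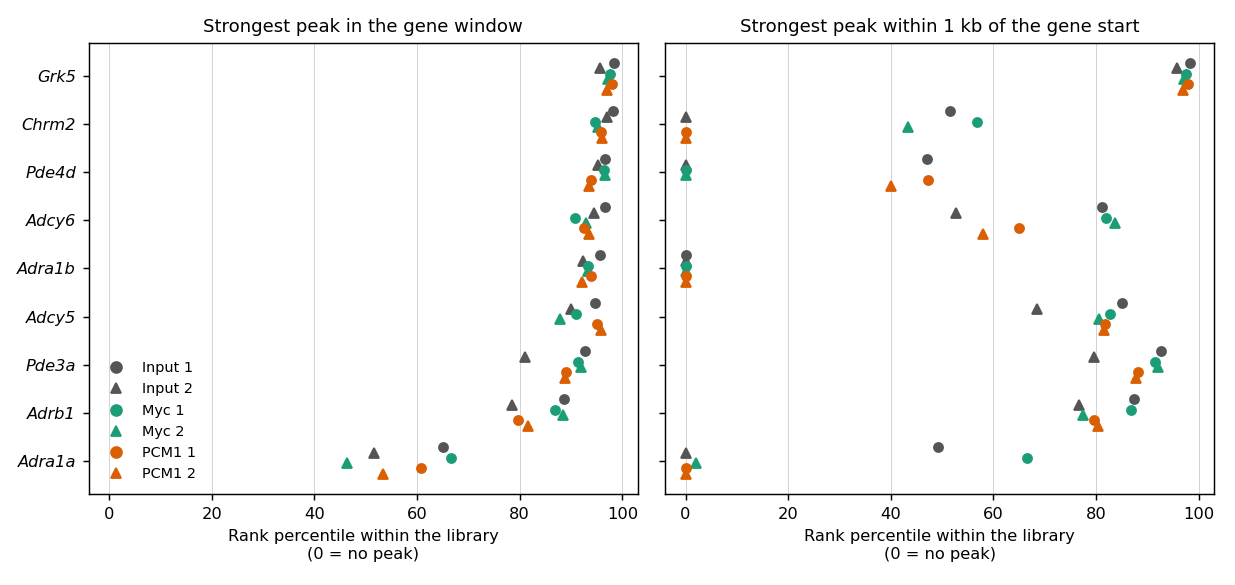
Rank percentile within each library (x axis, 0 to 100, 0 = no peak) of the strongest peak in each gene window (left) and of the strongest peak within 1 kb of the gene start (right), with a point per library and colors for groups. Grk5 sits above 95 in both panels, while the starts of Adra1b, Adra1a, Chrm2 and Pde4d are without a peak in 3 or more libraries.

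A start peak in all 6 libraries, taken as a peak within 1 kb of the 5′-most annotated start, was found for 5 of the 9 genes, Adrb1, Adcy5, Adcy6, Pde3a and Grk5. Across all protein-coding genes the share was 56.1%. The other four were Adra1a, Adra1b, Chrm2 and Pde4d, of which all but Adra1a had a peak above the 91st percentile elsewhere in the gene in all libraries.

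Among the receptors, Adrb1, which encodes the main β-adrenergic receptor of cardiomyocytes, had a start peak ranked 87.4 and 76.7 in the Input libraries, 86.9 and 77.5 in Myc libraries and 79.6 and 80.3 in PCM1 libraries. The groups overlapped. Its small window held 5 regions, 3 of them in all libraries, and the strongest by mean rank lay 14256 bp downstream of the start, beyond the gene's end. It ranked 88.6 and 78.4 in the Input libraries, 85.2 and 88.4 in Myc libraries and 74.4 and 81.6 in PCM1 libraries. An intronic region 5494 bp from the start ranked from 10.9 in Input replicate 2 to 76.3 in Myc replicate 1.

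Adra1a, which encodes the α1A receptor, was the least accessible member. Its start, shown above with an E-box and a CRE core match, ranked 49.3 in Input replicate 1, 66.6 in Myc replicate 1 and 1.98 in Myc replicate 2, and had no peak in the other three libraries. The 2 Myc libraries were thus the highest and the lowest of those with a peak. The 12 regions of its window amounted to 7.70 per 100 kb, a density above that of 38.0% of protein-coding genes, and only 1 was found in all libraries. That region lay past the gene's end, 138325 bp from the start, and ranked 4.37 and 5.37 in the Input libraries, 32.1 and 40.6 in Myc libraries and 38.3 and 36.2 in PCM1 libraries. Both Input libraries were lowest there, but this did not hold with an equal number of peaks.

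Adra1b, which encodes the α1B receptor, had no peak within 1 kb of its 5′-most start in any library. Its second annotated start, 64878 bp downstream, which is used by the protein-coding transcript Adra1b-204, ranked 95.7 and 91.6 in the Input libraries, 93.3 and 93.3 in Myc libraries and 93.1 and 91.4 in PCM1 libraries. The summit pileup there was 90.8 to 100.3 times the genome background of the library. Introns held 3 more regions with mean ranks of 90.6 to 91.6, at 35390, 80238 and 110628 bp from the 5′-most start. Of the 19 regions of the window, 9 were in all libraries. The single region present only in both PCM1 libraries lay in this gene, at ranks 1.94 and 23.9.

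Chrm2 had a weak 5′-most start, and its strongest region was in an intron. The start peak ranked 51.5 in Input replicate 1, and 56.8 and 43.4 in Myc, with no peak in Input replicate 2 or in either PCM1 library. A further region with its summit 1211 bp downstream, near the start of the long noncoding RNA gene 9330158H04Rik, was called in all libraries at ranks 7.23 to 48.1. The second Chrm2 start, 111 bp downstream of the first, had a peak within 1 kb in all 6 libraries, at 7.23 to 56.8. By contrast, the intronic region 17138 bp from the start, whose sequence held none of the motifs within the bases shown, ranked 98.2 and 97.0 in the Input libraries, 94.7 and 95.2 in Myc libraries and 95.8 and 96.0 in PCM1 libraries. Both Myc libraries were the lowest there by 0.630 points, also with an equal number of peaks. Their summit pileups were 97.2 and 102 times background against 106 to 149 in the other libraries. Both Input libraries were the highest there by 1.02 points, also with an equal number of peaks and by pileup but not by rank of fold enrichment. A second strong intronic region at 120061 bp ranked 92.3 to 96.8.

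The adenylyl cyclases, which make cAMP and are the main cardiac forms, had the densest windows. Adcy6 held 34.9 regions per 100 kb, above 99.7% of protein-coding genes, and Adcy5 held 25.2, above 96.4%, where the median gene held 10.2. Adcy6 had its strongest region at a second annotated start, 2443 bp downstream of the first and used by Adcy6-201, with ranks of 96.6 and 94.4 in the Input libraries, 90.8 and 92.9 in Myc libraries and 92.5 and 93.5 in PCM1 libraries. Both Input libraries were highest at this region by 0.886 points, also with an equal number of peaks but not by pileup. The 5′-most start ranked 81.1 and 52.7 in the Input libraries, 81.9 and 83.7 in Myc libraries and 65.0 and 58.0 in PCM1 libraries. The Myc libraries were highest at that start, by less than 1 point over Input replicate 1. Annotated starts of Adcy6 in its other 3 groups of transcripts had no peak in any library.

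Adcy5 had 43 regions, 12 of them in all libraries. Its start ranked 68.4 to 85.1, with overlapping groups. Its strongest regions were intronic, and the one at 101405 bp had the highest mean rank, 91.4. The region at 46652 bp, shown above with its SRF CArG match, ranked 91.9 and 87.9 in the Input libraries, 84.8 and 86.4 in Myc libraries and 92.3 and 95.8 in PCM1 libraries. It was lowest in both Myc libraries, also with an equal number of peaks, by fold enrichment and by summit pileup. It was highest in both PCM1 libraries, by 0.439 points over Input replicate 1, with an equal number of peaks and by pileup but not by fold enrichment, which was 14.4 and 13.3 in the Input libraries and 12.5 and 15.2 in PCM1 libraries. The summit pileup was 64.2 and 76.2, 51.4 and 57.8, and 97.2 and 139.5 times background.

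Pde3a, whose product is a cAMP phosphodiesterase that is itself inhibited by cGMP, had a strong start, ranked 92.7 and 79.7 in the Input libraries, 91.4 and 92.0 in Myc libraries and 88.2 and 87.8 in PCM1 libraries. Intronic regions at 24633 and 84190 bp ranked nearly as high, with means of 88.4 and 85.9. Of its 47 regions, 8 were in all libraries. Most of the others were weak and were called in Input replicate 1 or Myc.

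Grk5 had the strongest start of the 9 genes. It ranked 98.3 and 95.7 in the Input libraries, 97.6 and 97.2 in Myc libraries and 97.9 and 97.0 in PCM1 libraries, with a summit pileup 149 to 174 times background, and no group stood apart. An intronic region at 50455 bp ranked 96.1 and 93.1 in the Input libraries, 90.7 and 92.9 in Myc libraries and 97.1 and 96.8 in PCM1 libraries. It was highest in PCM1 and lowest in Myc, as was also found with an equal number of peaks. Both gaps were narrower than the difference between the Input replicates, with 96.8 in PCM1 next to 96.1 in Input and 92.9 in Myc next to 93.1 in Input.

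**Figure D2:**
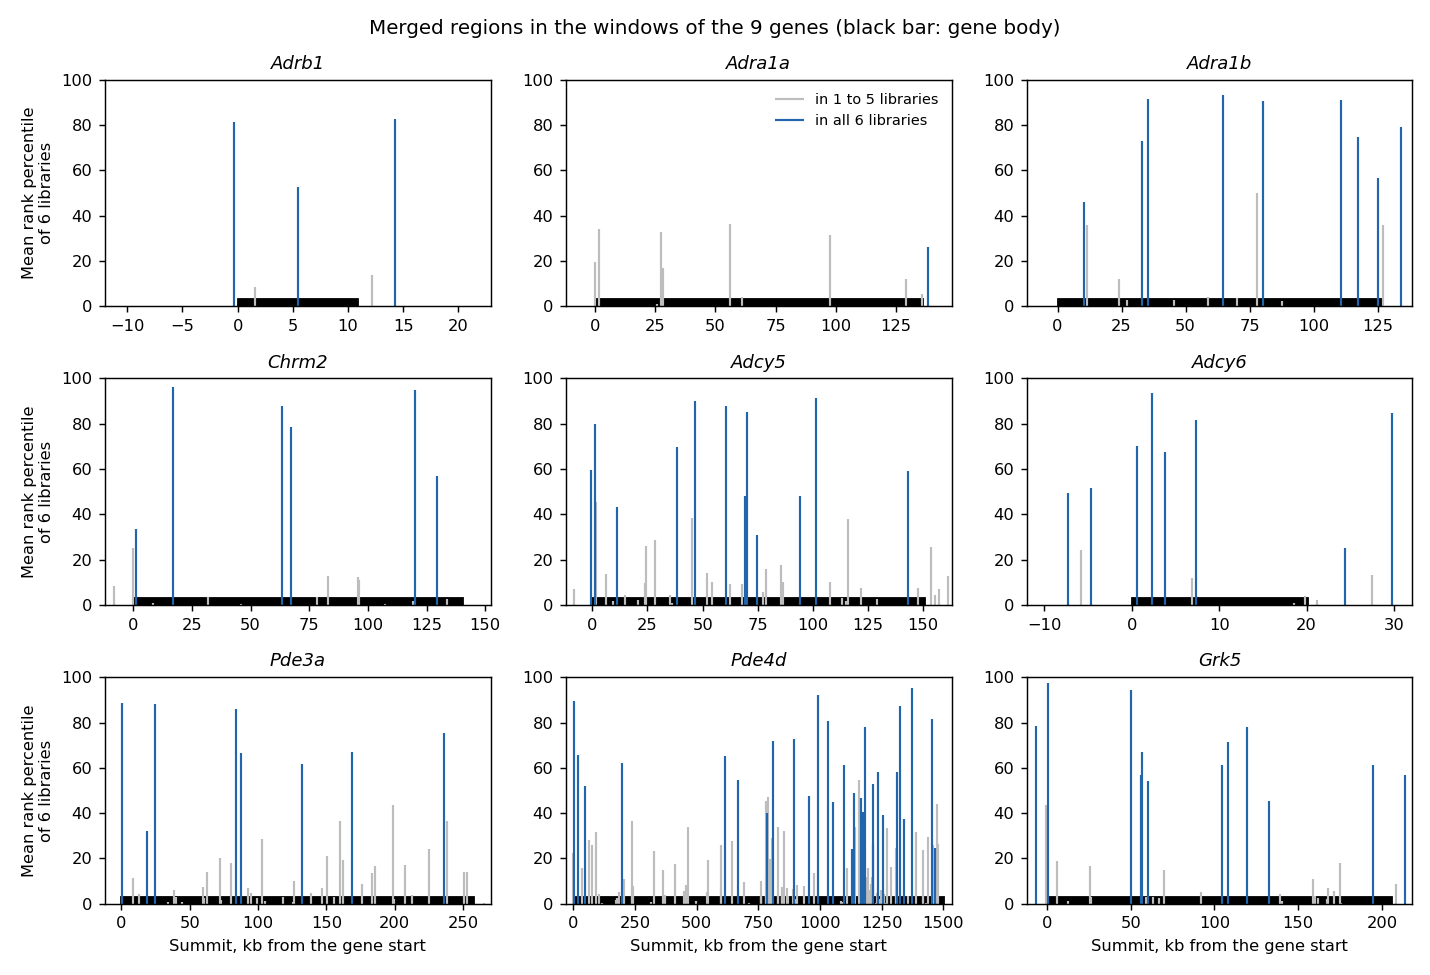
Each panel is a gene window, with the distance of the region's summit from the gene start in kb (x axis) and the mean rank percentile over the 6 libraries, counting 0 where no peak was called (y axis). Blue lines are regions found in all 6 libraries and grey lines the others, and Adra1a has only 1 blue line, beyond its end.

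Pde4d, which encodes a cAMP phosphodiesterase with many isoforms, spans 1503514 bp and held 126 of the 319 regions. That is 8.27 per 100 kb, above 40.7% of protein-coding genes, and 29 of the 126 were in all libraries. Its 20 annotated transcripts have 20 starts in 15 groups at least 1 kb apart. Peaks in all 6 libraries were found at 7 of these groups, peaks in some libraries at 4, and none at 4 (the starts of Pde4d-220, Pde4d-217, Pde4d-204 and Pde4d-219). The most accessible was the start of Pde4d-205, which ranked 95.2 and 88.7 in the Input libraries, 91.4 and 93.1 in Myc libraries and 93.9 and 90.0 in PCM1 libraries. Next came the start of Pde4d-207, with ranks of 74.4 to 89.2, and that of Pde4d-213, with 71.5 to 87.2, where both Myc libraries ranked lowest at 72.2 and 71.5.

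The weaker starts of Pde4d were those that differed between libraries. The 5′-most start, that of Pde4d-211, was called in Input replicate 1 at 47.0 and in PCM1 at 47.3 and 40.1, but in neither Myc library nor Input replicate 2. The start of Pde4d-209 was called only in Myc, at 20.7 and 44.3. The start of Pde4d-208 ranked 79.1 and 47.2 in the Input libraries, 80.1 and 66.9 in Myc libraries and 46.8 and 7.27 in PCM1 libraries, so that both PCM1 libraries were lowest, with PCM1 replicate 1 next to Input replicate 2. The strongest region of the gene was not at a start. It lay in an intron, 1372607 bp from the 5′-most start, and ranked 96.7 and 95.2 in the Input libraries, 96.5 and 96.6 in Myc libraries and 93.0 and 93.5 in PCM1 libraries.

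**Figure D3:**
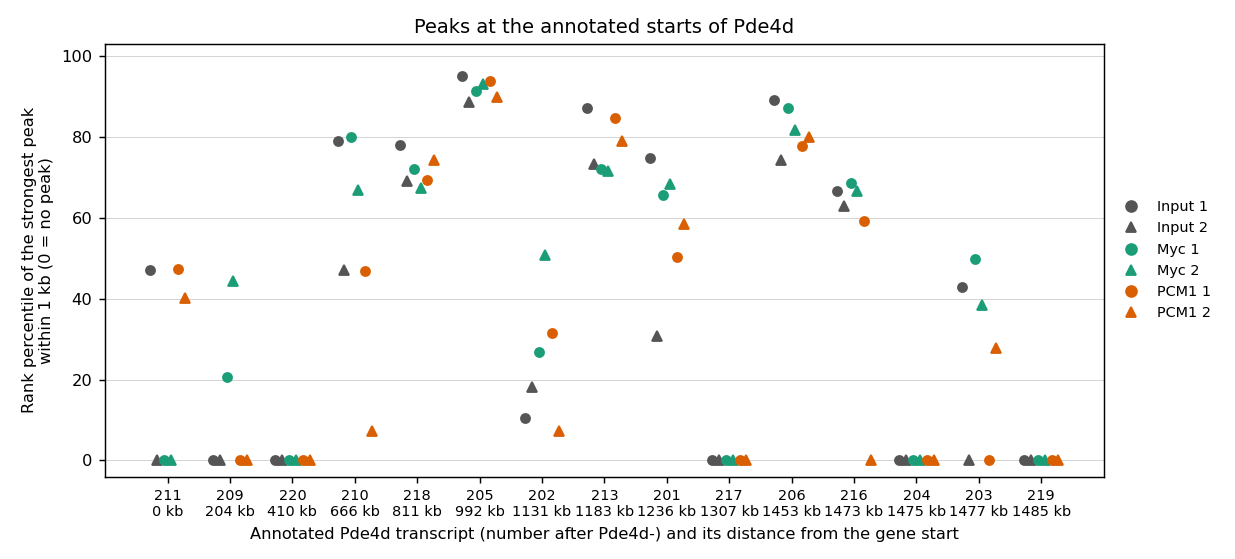
Rank percentile (y axis, 0 = no peak) of the strongest peak within 1 kb of the first start of each of the 15 start groups of Pde4d, ordered by distance from the gene start in kb (x axis), with a point per library. Pde4d-205 is above 88 in all libraries, and 4 starts are at 0 in all of them.

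Over the 9 windows, 88 of 319 regions (27.6%) were found in all 6 libraries, against 28.8% of all regions, and 87 (27.3%) in a single library, against 30.4%. Of those in a single library, 33 were in Input replicate 1, the deepest, and 1 in Input replicate 2. Introns held 259 regions, of which 23.6% were in all libraries, and 24 regions lay within 1 kb of an annotated start of the 9 genes, of which 54.2% were in all libraries. These shares by position were not compared with all regions. The median rank was 66.9 for regions in all 6 libraries, against 71.1 over all such regions, and 15.4 for those in 1, against 12.6.

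Input replicate 1 had the most regions for 7 of the 9 genes. Pde3a had 35 and 19 regions with a peak in Input, then 30 and 30 in Myc but 14 and 16 in PCM1. With an equal number of peaks these were 17 and 19, 20 and 16, and 11 and 13, so that both PCM1 libraries had the fewest regions in either count. With all peaks, PCM1 was lowest in this way for Pde3a and Grk5, 2 of the 8 members with at least 10 regions, against 10.1% of 4026 windows of that size. With an equal number of peaks only Pde3a remained, against 5.07% of windows. Pde3a's ratio of Myc to PCM1 regions was 1.50 with an equal number of peaks, above that of 94.7% of windows.

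Adcy5 differed in the other direction. It had 38 and 21 regions with all peaks in Input, against 26 and 21 in Myc and 23 and 25 in PCM1, and these overlapped. With an equal number of peaks it had 19 and 21 in the Input libraries, 15 and 17 in Myc libraries and 22 and 25 in PCM1 libraries. PCM1 then had the most, as in 7.77% of windows, and Myc the fewest, as in 9.19% of windows, an order that also held for Adcy6 in Myc (9 and 10 in Input, 8 and 8 in Myc, 9 and 9 in PCM1). The ratio of Myc to PCM1 regions in Adcy5 was 0.681, above that of 6.68% of windows.

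**Figure D4:**
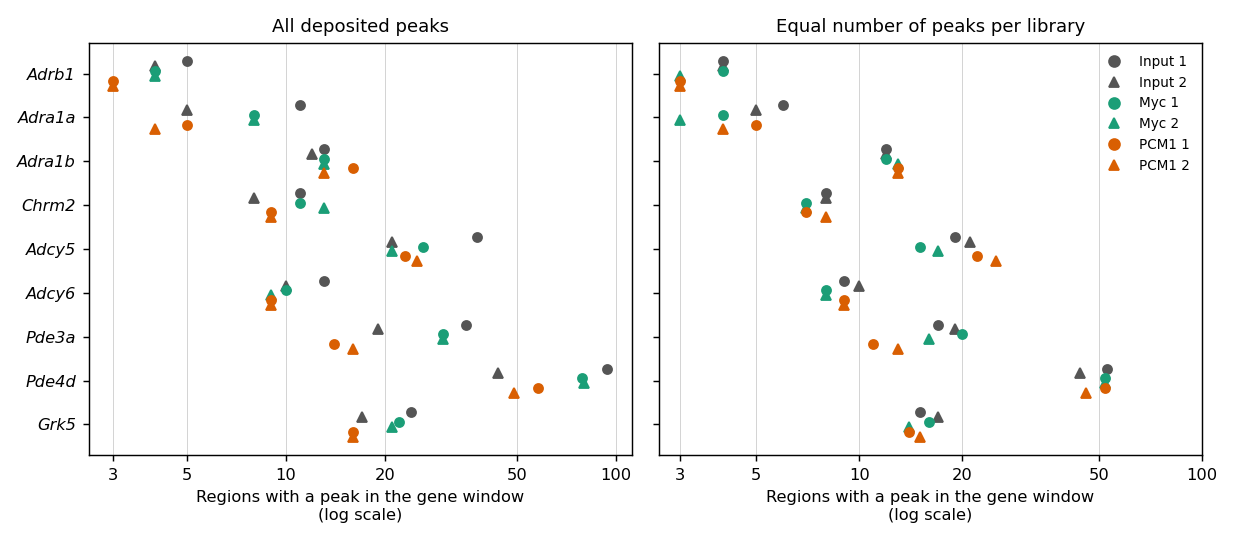
Number of regions with a peak in each gene window (x axis, log scale) in each library, with all peaks (left) and with the strongest 75336 peaks of each library (right). For Pde3a the PCM1 points lie lowest in both panels, and for Adcy5 they lie highest only in the right panel.

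Most regions did not separate the groups, and the counts of those that did were near the shares across the genome. Regions present only in both libraries of a group numbered 5 for Input (1.57%, against 1.08% of all regions), 5 for Myc (1.57%, against 1.84%) and 1 for PCM1 (0.313%, against 0.254%). Ranks were higher in both libraries of a group than in the other four at 20 regions for Input (6.27%, against 4.75%), 30 for Myc (9.40%, against 10.8%) and 5 for PCM1 (1.57%, against 1.76%). These counts changed with the ranking. With an equal number of peaks, 13 of 230 regions were highest in Input (5.65%, against 6.25%), 25 in Myc (10.9%, against 12.6%) and 20 in PCM1 (8.70%, against 10.3%). By summit pileup over background, 10 of the 319 were highest in Input (3.13%, against 3.46%), 44 in Myc (13.8%, against 16.7%) and 30 in PCM1 (9.40%, against 8.02%). With all peaks, ranks were lower in both than in the other four at 3 regions for Input (0.940%, against 0.611%), 5 for Myc (1.57%, against 2.83%) and 27 for PCM1 (8.46%, against 9.96%). With an equal number of peaks and also by pileup over background, 5 of the 20, 18 of the 30 and 3 of the 5 regions ranked highest kept that place, and 0 of the 3, 4 of the 5 and 11 of the 27 ranked lowest did. The PCM1 libraries were shallow and Input replicate 1 was deep. Without both PCM1 libraries, 7 regions were only in Input and 7 only in Myc.

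Pde4d held 15 of the 30 regions ranked highest in Myc and 16 of the 27 ranked lowest in PCM1, and it held 126 of the 319 regions in all. The widest gap was at a region within 1 kb of the start of Pde4d-216, a retained intron transcript near the 3′ end of the gene. It ranked 66.6 and 62.9 in Input and 68.5 and 66.6 in Myc, and no peak was called in PCM1. Its summit pileup was 15.9 to 27.1 times background in the 4 libraries that had it. A separate region on the other side of that start was called in PCM1 replicate 1, at 59.1. Intronic regions at 779438 and 829464 bp also lacked a peak or nearly so in PCM1, with ranks of 0 and 0.343 at the former against 55.4 to 79.1 elsewhere, and 0 and 0 at the latter against 39.8 to 59.1. The former kept this order with an equal number of peaks and the latter did not.

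The region highest in Myc by the widest gap was intronic in Pde4d, 547906 bp from the start. It ranked 14.2 and 0 in the Input libraries, 51.0 and 49.9 in Myc libraries and 1.94 and 0 in PCM1 libraries, and the order held with an equal number of peaks and by pileup. A Pde4d region at 1286543 bp was called only in Myc, at 32.1 and 64.6. In Pde3a, a region in the 3′ untranslated part at 252762 bp ranked 4.37 and 0 in the Input libraries, 36.0 and 44.3 in Myc libraries and 0 and 0 in PCM1 libraries.

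At the regions lowest in Myc, peaks were called in every library and the gaps were narrower. The widest was past the end of Grk5, 213794 bp from its start, with ranks of 61.1 and 64.8 in the Input libraries, 42.9 and 48.7 in Myc libraries and 61.5 and 63.3 in PCM1 libraries. By pileup over background it did not keep this order, at 10.9 and 21.5, 11.8 and 13.2, and 18.4 and 22.1. The region highest in PCM1 by the widest gap was intronic in Pde4d at 1465804 bp, with ranks of 17.0 and 2.48 in the Input libraries, 22.2 and 29.7 in Myc libraries and 37.3 and 39.7 in PCM1 libraries. The same region was also lowest in Input.

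The region highest in Input by the widest gap was intronic in Grk5 at 174837 bp, with ranks of 37.6 and 48.7 in the Input libraries, 10.6 and 10.4 in Myc libraries and 0 and 0 in PCM1 libraries. It did not keep this place with an equal number of peaks or by pileup. An intronic Pde3a region at 126069 bp was called only in Input, at 32.4 and 26.8. Its place as highest in Input held by pileup but not with an equal number of peaks.

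**Figure D5:**
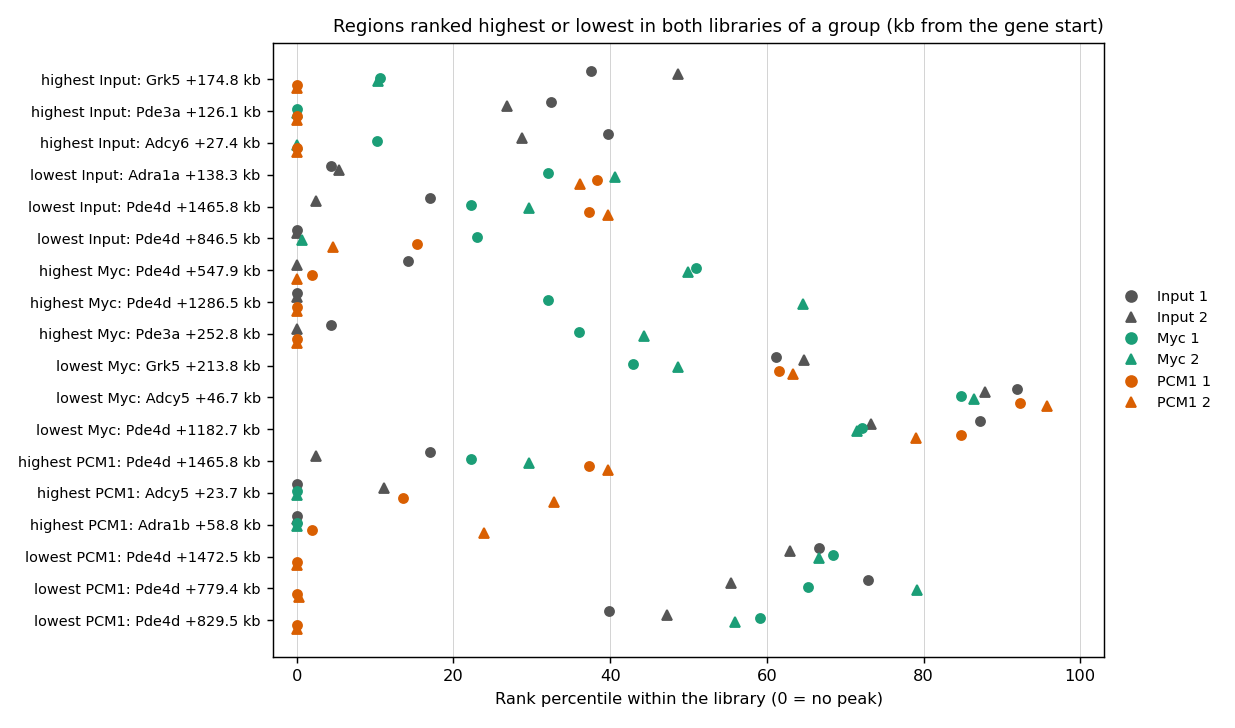
Rank percentile in each library (x axis, 0 = no peak) of up to 3 regions per group and direction with the widest gap between both libraries of that group and the other four, named by gene and distance from the gene start in kb. The gap is widest at the top 2 Pde4d regions lowest in PCM1, and under 2 points at the Adcy5 and Pde4d regions lowest in Myc.

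Start ranks of cell type markers were compared in the same way. They were lowest in both Myc libraries at 4 of 10 cardiomyocyte genes, Myh6, Tnnt2, Ttn and Myl2, against 2.40% of all gene starts, and the same 4 were called with an equal number of peaks, against 5.58% of starts. For Myh6 the ranks were 99.0 and 98.7 in the Input libraries, 88.8 and 92.6 in Myc libraries and 99.0 and 98.8 in PCM1 libraries. Ttn was highest in both PCM1 libraries with all peaks, and Myh6, Tnnt2 and Ttn were with an equal number. The share of all starts was not taken for that condition. Pln was lowest in both PCM1 libraries with all peaks, against 20.9% of starts. Of 8 fibroblast genes, 4 were lowest in both PCM1 libraries with all peaks, against 20.9% of all gene starts, and 2 with an equal number, against 18.2%, while 2 with all peaks, against 19.2%, and 4 with an equal number, against 21.6%, were highest in both Myc libraries. Of 8 endothelial genes, Tek, Kdr and Emcn were highest in both Myc libraries in either count, against 19.2% and 21.6% of starts. With an equal number Tie1 was lowest in Myc, against 5.58%. Flt1 was lowest in PCM1 with all peaks, against 20.9%, and highest in Input with an equal number. Of 6 epicardial genes, Tbx18 and Aldh1a2 were lowest in PCM1 with all peaks, against 20.9%. With an equal number, Tbx18 was lowest in PCM1, against 18.2%, and highest in Myc, against 21.6%, and Upk3b was highest in Input. The part of these markers in the differences at Adcy5, Grk5, Chrm2 and Pde4d was not tested.

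The rest of the pathway was described by the starts of 69 further genes. A start peak was in all 6 libraries for 48 of them (69.6%, against 56.1% of all protein-coding genes) and in none for 11. Of all protein-coding genes, 68.2% had a start peak in any library. All 6 receptor kinases and arrestins and 8 of 9 G protein subunits had one in all libraries, the exception being Gnb5, which had none. Adrb3, an adrenergic receptor of brown fat, had none in any library. Of the 4 other muscarinic receptors, 0 had a start peak in all libraries, and Chrm1 and Chrm5 had none in any. The remaining genes without a start peak in any library were Pde4c, Prkar2a, Akap6, Akap7, Rgs3, Rgs6 and Popdc3. Their windows held 12, 11, 51, 20, 40, 79 and 21 regions, in that order. Only the 5′-most annotated start of each of the 69 genes was examined, so peaks at other starts were not counted.

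Of the 69 starts, 20 ranked lower in both PCM1 libraries than in the other four (29.0%, against 20.9% of all protein-coding gene starts), and with an equal number of peaks 14 did (20.3%, against 18.2%). Ranks were higher in both Myc libraries at 9 (13.0%, against 19.2%). They were lower in both Myc libraries at 3, Adcy9, Cacna1c and Popdc2 (4.35%, against 2.40%), and with an equal number of peaks at 7 (10.1%, against 5.58%). Cacna1c encodes the L-type calcium channel that protein kinase A regulates, and Popdc2 a membrane protein that binds cAMP. Cacna1c ranked 99.1 and 98.3 in the Input libraries, 95.1 and 96.2 in Myc libraries and 99.4 and 99.4 in PCM1 libraries. Start ranks of Rgs4, Rgs5 and Rgs7, which speed the shut-off of G proteins, were lowest in PCM1 in either count. For Rgs5, also a pericyte marker, they were 49.7 and 5.37 in the Input libraries, 39.3 and 48.7 in Myc libraries and 1.94 and 2.01 in PCM1 libraries. Of the 8 smooth muscle and pericyte genes, Rgs5 and Myh11 were lowest in PCM1 in either count, against 20.9% and 18.2% of starts. With an equal number of peaks, Acta2 and Tagln went the other way and were highest in both PCM1 libraries.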

How the data were processed

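Data were 6 peak lists, 1 per library, of 3 groups with 2 biological replicates each. The authors trimmed reads, mapped them to mm10 with Bowtie2 2.3.3.1, marked duplicates with Picard 2.2.1, removed blacklisted regions with bedtools 2.7.1, applied the Tn5 shift, and called peaks for each library with MACS2 2.1.0.20160309 at a q-value of 0.05. The deposited fold is the authors' ratio of summit pileup to local background, and the deposited -log10 columns give the significance that MACS2 assigned the summit, as a p-value and as a q-value.

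Peaks of the 6 libraries that overlapped or touched were merged. The rank percentile of a region in a library is that of its strongest peak by -log10 q-value, tied values sharing a rank. Summit pileup and local background were solved from the fold and the p-value, where 100% of pileups came out whole within 0.02, and the most frequent background, 0.903 to 3.96, was taken as depth. The precision of these lists is limited by that depth. Genes, transcripts and positions came from GENCODE M21, and sequences from the RefSeq GRCm38.p6 genome, whose chromosomes are those of mm10. Windows were compared between groups if they held at least 10 regions. Python 3.11.15, numpy 2.4.6, scipy 1.17.1, pandas 2.3.3, pysam 0.24.0 and matplotlib 3.10.9 were used, and the computations were tested on simulated data.

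No test between groups was run, and differences are given beside the share of all regions, starts or windows that met the same condition. The members and the marker and pathway lists were chosen with earlier results of these data known. Regions named are each gene's start and region of highest mean rank, and for each group up to 3 regions present only in it, up to 3 ranked highest and up to 3 ranked lowest, by the gap. Of the sequences, 6 were chosen by the widest gap or the most variable start, and those of Adra1b, Adcy5, the strongest Chrm2 region and the strongest Pde4d region after their values were seen. Other regions, starts and genes given with values were also picked after their values were seen. Alternatives were a q-value of 0.01, the same number of peaks per library, a 2 kb flank, regions from summits, ranks by fold, pileup over background, 200 bp around the start, and leaving out each library. Leaving out both PCM1 libraries, and window counts at the same number of peaks, were added after the data were seen.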

Additional observations from a re-analysis of the deposited data

How the results depend on the processing

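With the same number of peaks in each library, regions present only in both Input libraries numbered 2 (5 as reported) and those only in both PCM1 libraries 2 (1 as reported). Regions ranked highest in both Input libraries then numbered 13 (20 as reported) and in both PCM1 libraries 20 (5 as reported), and gene windows with the fewest regions in both PCM1 libraries 1 (2 as reported). By summit pileup over background, 10 regions were highest in both Input libraries and 30 in both PCM1 libraries. With regions built from summits, 2 were present only in both PCM1 libraries. Within 200 bp of the start, 3 of the 9 genes had a peak in all 6 libraries. When each library was left out in turn, regions only in Input ranged from 5 to 38, only in Myc from 5 to 20 and only in PCM1 from 1 to 19, and regions ranked highest ranged from 21 to 147 in Input, 31 to 74 in Myc and 6 to 45 in PCM1. The highest counts for Input came without Input replicate 2, and those for PCM1 without PCM1 replicate 2. Where the library left out belonged to the group itself, the condition had to be met only by its 1 remaining library. That condition is looser, so these ranges do not describe a single count. For Myc, 20 regions were only there without Input replicate 1, Myc replicate 1 or Myc replicate 2, and 74, 68 and 73 ranked highest, against 31 or 32 without any other single library. Both Myc libraries were still required without Input replicate 1, and the cause of the higher count there was not tested. The number of regions in all libraries stayed between 78 and 118 under all alternatives run, the highest being without both PCM1 libraries, an alternative chosen after seeing the data. The count of 5 members with a start peak in all libraries changed only with the 200 bp limit. No paired analysis was possible because the lists hold no counts and ranks were compared without a test. Per the study's methods, Input was part of the cushion nuclei that were otherwise immunoprecipitated, so libraries may share preparations, and the labels do not say which. Depth limits what absence of a peak can show, most of all in PCM1 and Input replicate 2.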
